A study of Mus musculus with 93 samples.

Results

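Fibroblast growth factor (FGF) signalling genes were followed in mouse R1 embryonic stem (ES) cells. The group was chosen by gene name and holds every Fgf ligand, Fgfr1 to Fgfr4, the Sprouty and Spred genes, Dusp4, Dusp6, Etv4 and Etv5. Of 33924 gene names in the count tables, 36 matched: 22 ligands, 4 receptors, 8 feedback inhibitors and 2 target transcription factors. The name Spry3 was not among them, so the Sprouty genes here are Spry1, Spry2 and Spry4. RNA-seq gave 12 libraries, which form 4 groups of 3 replicates in 2 sets. In set 1, wild type (WT) cells stood against Ring1b I53A cells, in which the protein encoded by Rnf2 bears a point mutation. In set 2, WT cells stood against H1b/c/d/e-QKO cells, by their label a quadruple knockout of linker histone genes. Ring1b is the subunit with which Polycomb repressive complex 1 attaches ubiquitin to histone H2A, and linker histones bind between nucleosomes and compact chromatin. All groups carry the strain label R1 and were kept in serum with leukaemia inhibitory factor, a cytokine that keeps ES cells undifferentiated. Neither separate cultures for the replicates nor the number of clones per genotype is given in the sources used here, so p-values measure only how far these libraries spread, and that spread may be technical.

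FGF ligands bind FGF receptors, a family of tyrosine kinases, together with heparan sulphate chains on the cell surface or, for the hormone-like ligands, a Klotho co-receptor. Activated receptors signal through the adaptor Frs2, Ras and the Raf and MEK kinases to the kinase ERK, which switches on the ETS factors Etv4 and Etv5 and a set of inhibitors that act back on the pathway. Sprouty and Spred proteins act on the Ras and Raf steps, and Dusp4 and Dusp6 are phosphatases that remove the activating phosphates from ERK. Mouse ES cells secrete Fgf4, and in the early mouse embryo FGF signalling through Fgfr1 and Fgfr2 is known to direct inner cell mass cells to the primitive endoderm.

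Libraries held between 12585621 and 23378930 counts. Markers of ES cells were present in every group, with 13 genes summing to at least 5818 CPM (counts scaled to library size) in each library. Rnf2 was lower in the I53A libraries, at 98.2, 95.8 and 85.8 CPM against 192, 189 and 178 in WT, which does not check a point mutation. Transcripts of the linker histone genes named in the QKO label were not lower as a group: Hist1h1b had 62, 53 and 72 counts in the libraries labelled QKO against 4, 9 and 2 in WT, and Hist1h1c had 505 counts over 3 libraries against 521. These libraries are therefore called by their label. Over all genes tested, 18.1% were called higher and 17.4% lower in I53A, and 28.7% higher and 29% lower in the libraries labelled QKO, at an adjusted p under 0.05, and the marker counts that follow stand against these shares. The marker lists were chosen with earlier results of these data known, so their counts are a description. Markers of primitive endoderm moved with I53A: 17 of 18 listed genes were called higher and 1 lower, and the list summed to between 3983 and 4134 CPM against 479 to 506 in WT. In the libraries labelled QKO 10 of 16 tested genes of that list were called higher and 1 lower, and it summed to between 473 and 483 CPM against 376 to 401. Of its genes called higher, 2 in I53A and 2 in the libraries labelled QKO had a mean WT count under 10. Markers of fibroblast feeder cells summed to 152 to 168 CPM in I53A against 108 to 146 in WT, and to 284 to 293 CPM in the libraries labelled QKO against 143 to 155, with Dcn and Lum at 0 counts in every QKO library. Of that feeder list 8 of 11 tested genes were called higher in I53A and 6 of 8 in the libraries labelled QKO, and 0 lower in either, where 3 and 1 of those called had a mean WT count under 10. Elsewhere its genes at 0 counts throughout were Dcn, Postn and Prrx1 in WT of set 1, Lum in I53A and 8 genes in WT of set 2. Of 13 ES cell markers, 2 were called higher and 5 lower in I53A, and 9 higher and 3 lower in the libraries labelled QKO. Of 10 markers of primed epiblast, 5 were called higher in each comparison, with 2 lower in I53A and 4 lower in the libraries labelled QKO. The part of these other cell states in the results below was not tested, and in bulk RNA fewer cells of a type and less RNA per cell cannot be told apart.

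Levels per length showed which FGF genes these cells used, given as mean CPM per kilobase of exon in WT cells of set 1 and then set 2. Fgf4, the main FGF of ES cells, had the highest level of all ligands, at 85.8 and 72.6. The next ligand per length was Fgf17, a member of the Fgf8 subfamily, in set 1, and Fgf15, the mouse hormone-like ligand, in set 2. Fgf17 was at 10.0 and 4.23, and Fgf15 at 3.67 and 5.17. Among receptors Fgfr1 stood far above the others, at 18.1 and 14.5, whereas Fgfr4 was at 1.57 and 2.06. Fgfr2 and Fgfr3 were low, at 0.299 and 0.256 in set 1 and at 0.110 and 0.715 in set 2. The ETS factors, Spry2 and Spry4 were abundant, with Etv5 at 55.5 and 66.6, Etv4 at 41.3 and 71.7, Spry2 at 29.1 and 19.3, and Spry4 at 22.6 and 24.2. Spry1 was lower, at 3.68 and 7.94. WT levels differed between the sets for some members, such as Fgf18 at 0.453 and 3.00, and the WT groups were not tested against each other. At the other end, 8 ligands (Fgf2, Fgf5, Fgf6, Fgf9, Fgf14, Fgf16, Fgf20 and Fgf21) had at most 10 counts in every library.

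**Figure D1:**
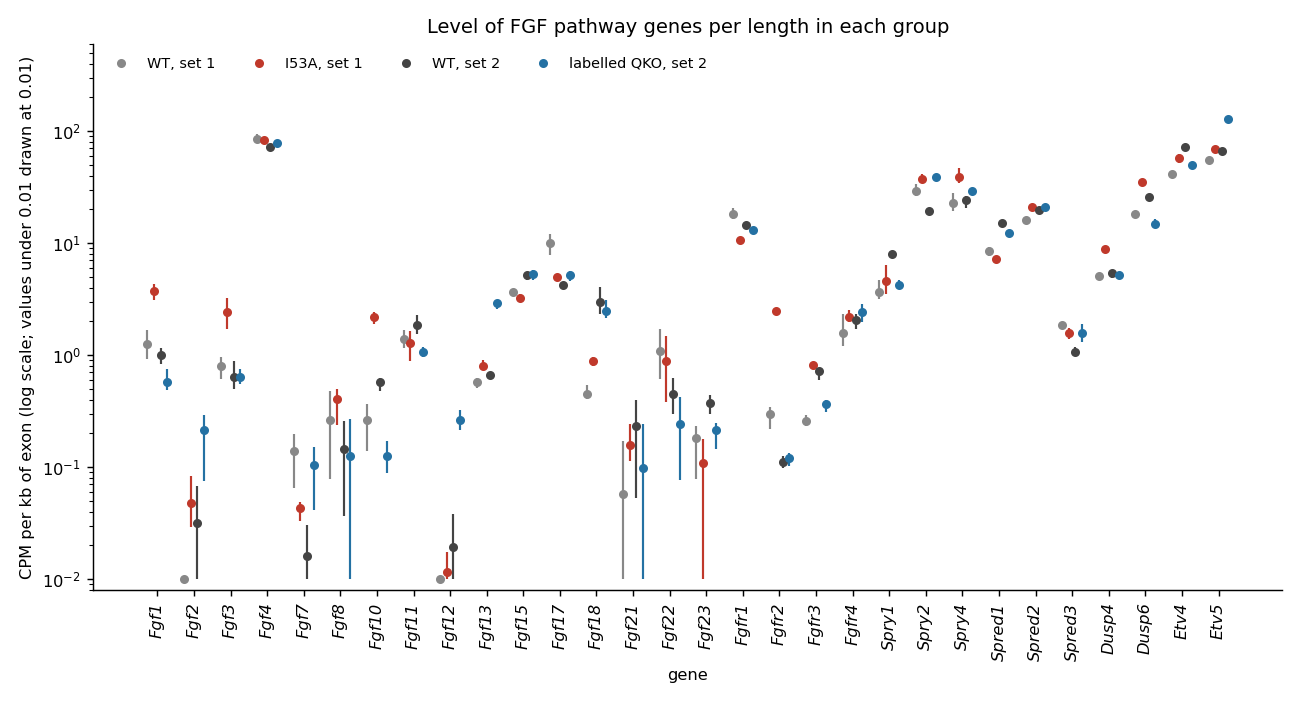
Mean CPM per kilobase of exon (log axis, scaled over all 12 libraries) for members above the lowest counts, by group. Points are means of 3 libraries, vertical lines run from the lowest to the highest library, and values under 0.01 are drawn at 0.01. Fgf4, Etv5 and Etv4 lie at the top in all groups, and Fgf10 and Fgfr2 stand apart in I53A.

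Promoters of 5 members on which the results turn are shown, because Polycomb complexes are known to gather at promoters rich in CpG dinucleotides. Fgf10 and Fgfr2 had the largest rises in I53A, and Spry2, Spry1 and Dusp6 had the largest changes among the feedback inhibitors in set 2. Each sequence is the 250 bases before the gene start in RefSeq on GRCm38.p6, 5′ to 3′ on the gene's strand, with CpG dinucleotides in capitals. The windows are chr13:118714449-118714698 (plus strand) for Fgf10, chr7:130266809-130267058 (minus) for Fgfr2, chr10:99262981-99263230 (plus) for Dusp6, chr3:37639697-37639946 (plus) for Spry1 and chr14:105896820-105897069 (minus) for Spry2.
Fgf10: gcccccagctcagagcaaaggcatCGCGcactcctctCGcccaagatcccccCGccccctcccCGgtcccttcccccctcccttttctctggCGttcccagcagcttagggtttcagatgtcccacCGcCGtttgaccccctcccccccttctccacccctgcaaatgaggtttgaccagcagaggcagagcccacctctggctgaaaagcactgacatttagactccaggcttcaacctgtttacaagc
Fgfr2: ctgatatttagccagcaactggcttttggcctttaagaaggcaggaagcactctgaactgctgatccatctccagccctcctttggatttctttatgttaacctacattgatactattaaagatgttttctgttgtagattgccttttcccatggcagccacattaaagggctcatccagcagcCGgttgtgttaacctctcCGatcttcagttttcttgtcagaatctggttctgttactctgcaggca
Dusp6: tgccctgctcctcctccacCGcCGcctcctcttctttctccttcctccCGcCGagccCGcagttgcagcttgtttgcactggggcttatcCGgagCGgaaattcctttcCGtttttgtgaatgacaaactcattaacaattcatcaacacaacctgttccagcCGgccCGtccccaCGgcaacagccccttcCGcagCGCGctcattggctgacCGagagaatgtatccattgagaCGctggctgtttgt
Spry1: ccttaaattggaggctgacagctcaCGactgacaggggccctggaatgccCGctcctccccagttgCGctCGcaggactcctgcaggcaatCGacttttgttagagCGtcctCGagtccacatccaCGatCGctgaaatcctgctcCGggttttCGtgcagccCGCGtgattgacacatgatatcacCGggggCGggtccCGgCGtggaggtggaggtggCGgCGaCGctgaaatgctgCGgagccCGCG
Spry2: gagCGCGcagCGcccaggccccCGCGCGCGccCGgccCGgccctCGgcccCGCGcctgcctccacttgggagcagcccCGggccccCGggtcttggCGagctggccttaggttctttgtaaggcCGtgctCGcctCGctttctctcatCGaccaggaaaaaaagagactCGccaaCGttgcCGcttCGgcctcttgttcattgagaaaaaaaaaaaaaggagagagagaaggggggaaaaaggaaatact

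The windows of Fgf10 and Fgfr2 held 8 and 2 CpG dinucleotides, with observed-to-expected ratios of 0.401 and 0.167. Windows were matched to members by gene name, not to the ends of the counted gene models. For Fgfr2 the counted model runs from 137305965 to 140315033 on the minus strand (mm9). Its 5′ end need not lie at the Fgfr2 window shown. Those of Dusp6, Spry1 and Spry2 held 16, 23 and 23, with ratios of 0.864, 0.946 and 0.947. RefSeq windows were found for 26 of the 36 members, 34 windows in all, with a median of 17 CpG dinucleotides against 6 over all 32851 windows. The ETS core motif CCGGAA, searched on both strands, was present in 3 member windows (1 each of Fgf12, Fgf5 and Fgfr4) and in 12% of all windows, and in none of the 5 shown.

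I53A cells were compared with WT cells to see which FGF genes respond when Ring1b carries the mutation. Of 24 members that passed the filter on low counts, 11 were called higher and 2 lower at an adjusted p under 0.05, while over all 15536 genes tested 18.1% were called higher and 17.4% lower. The median log2 fold change was 0.45 over the tested members and -0.00103 over all genes tested. All 12 members that did not pass were ligands, and of those that passed, Fgf8 and Fgf18 had a mean WT count under 10. Among ligands, Fgf1, Fgf3 and Fgf10 rose and Fgf17 fell; among receptors, Fgfr2 and Fgfr3 rose and Fgfr1 fell; Spry4, Spred2, Dusp4, Dusp6, Etv4 and Etv5 all rose. With replicate number as a block, which set 1 allows, 28.1% of genes were called higher and 28.5% lower, and 13 members were called higher and 3 lower.

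Fgf10, a ligand of the Fgf7 subfamily that signals from mesenchyme to Fgfr2b on epithelium, gave the largest rise among ligands. It lies on chromosome 13, from 119458598 to 119580922 on the plus strand (mm9, the build of all coordinates of genes below). Its level was 1.80, 0.670 and 1.38 CPM in the WT libraries and 9.20, 11.5 and 11.3 CPM in I53A, so all 3 mutant libraries lay far above the controls. The rise was 8.32-fold, a log2 change of 3.06 ± 0.30 (adjusted p = 0.000192). Fgf3, of the same subfamily and known from inner ear development, stood at 2.36, 2.07 and 1.53 CPM in WT and 5.76, 4.16 and 7.98 CPM in I53A, without overlap, a log2 change of 1.56 ± 0.29 (adjusted p = 0.00416). Fgf1, which binds all FGF receptors, went from 5.67, 8.21 and 4.59 CPM to 18.2, 20.8 and 15.2 CPM, again without overlap, a log2 change of 1.55 ± 0.22 (adjusted p = 0.00118). Fgf17 moved the other way, from 18.03, 13.9 and 21.9 CPM to 8.48, 9.23 and 8.92 CPM, a log2 change of -1.01 ± 0.18 (adjusted p = 0.00296). Per length it was at 5.01 CPM per kilobase in I53A, above the 4.23 in WT of set 2. Fgf10, Fgf3 and Fgf1 were at 2.21, 2.44 and 3.71 in I53A, and at 0.572, 0.642 and 1.00 in WT of set 2.

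Fgf4 held its place as the most abundant ligand, at 269, 257 and 303.1 CPM in WT and 253, 254 and 281 CPM in I53A. These groups overlapped, and the log2 change was -0.072 ± 0.085 (adjusted p = 0.556). Fgf4 lies 16949 bases from Fgf3 and 31288 bases from Fgf15 on chromosome 7. Fgf3 was the called gene of these 3 neighbours, and Fgf15 gave -0.20 ± 0.15 (adjusted p = 0.331). The remaining tested ligands Fgf8, Fgf11, Fgf13 and Fgf18 were not called, with log2 changes of 0.64, -0.12, 0.45 and 0.93. With the spread taken over all 12 libraries Fgf13 (0.46, adjusted p = 0.0409) and Fgf18 (0.94, adjusted p = 0.042) were called. Fgf15 shares 26.4% of its exon bases with Gm17685 on the other strand, and the counting used no strand, so its counts are uncertain.

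Ligands under the filter gave few counts. Fgf14 had 9 counts over the 3 I53A libraries and 0 in WT, a ratio of 3.05 when the WT group is set to a floor of 3 summed counts. Fgf16 had 7 counts against 0, a ratio of 2.37 to that floor, and Fgf2 had 4 against 0, a ratio of 1.36 to it. For Fgf20, 8 counts stood against 1, a ratio of 8.13 with an exact 95% interval from 1.09 to 360.9, and for Fgf5, 7 against 1, a ratio of 7.12 with an interval from 0.914 to 320.8. Fgf7 had 12, 4 and 7 counts in WT and 3, 2 and 2 in I53A, and Fgf22 had 10, 19 and 5 and 9, 16 and 3, with overlap. Fgf23, a hormone-like ligand, had 8, 8 and 2 counts in WT and 5, 6 and 0 in I53A. Fgf21, also hormone-like, had at most 3 counts in a library of set 1, and Fgf6, Fgf9 and Fgf12 had at most 2. Intervals cover counting error only, while ratios to a floor take the I53A count as exact and are not lower bounds. No test across libraries was made on these ligands. Fgf2 shares 13.4% of its exon bases with Nudt6 and Fgf20 shares 12% with Efha2, which limits both.

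The receptors changed in opposite directions, in I53A libraries that also held the primitive endoderm transcripts given above. Fgfr2, the receptor that the primitive endoderm of the mouse embryo uses together with Fgfr1, was at 2.81, 1.79 and 2.83 CPM in WT and 19.8, 20.7 and 20.5 CPM in I53A. The 3 mutant libraries lay close together and far above all controls, an 8.26-fold rise and a log2 change of 3.05 ± 0.19 (adjusted p = 1.84e-05). Fgfr3, best known as a brake on bone growth, rose from 1.80, 1.67 and 2.14 CPM to 6.10, 5.51 and 6.24 CPM, a log2 change of 1.67 ± 0.20 (adjusted p = 0.000433). Fgfr1, the main FGF receptor of ES cells, fell from 149, 139.6 and 176 CPM to 90.9, 83.4 and 94.1 CPM, a log2 change of -0.79 ± 0.10 (adjusted p = 0.000642). Per length, Fgfr1 stayed the most abundant receptor in I53A, at 10.6 CPM per kilobase, with Fgfr2 at 2.48 and Fgfr4 at 2.19. Fgfr3 was at 0.823 in I53A, near the 0.715 in WT of set 2, where Fgfr2 was at 0.110 and Fgfr1 at 14.5. Fgfr4 was at 4.49, 4.58 and 8.79 CPM in WT and 7.43, 7.60 and 9.48 CPM in I53A, and replicate 3 was the highest library of each genotype. Its log2 change of 0.47 ± 0.27 (adjusted p = 0.22) was not called, while with the replicate block it was 0.51 (adjusted p = 0.019) and without WT replicate 3 it was 0.84 (adjusted p = 0.00974). That last fit kept I53A replicate 3, so the difference between replicates enters its change. The gene model of Fgfr2, on chromosome 7, from 137305965 to 140315033 on the minus strand, shares 4.03% of its exon bases with Ctbp2 on the same strand.

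Feedback inhibitors of the ERK pathway rose or were not called in I53A. Dusp6, the phosphatase most specific for ERK, was at 52.1, 52.6 and 56.5 CPM in WT and 105, 95.3 and 109 CPM in I53A, a 1.92-fold rise without overlap and a log2 change of 0.94 ± 0.082 (adjusted p = 9.89e-05). Dusp4, a nuclear relative, rose from 15.3, 14.0 and 15.4 CPM to 24.6, 24.1 and 27.3 CPM, a log2 change of 0.77 ± 0.10 (adjusted p = 0.000926). Spry4 stood at 97.5, 94.4 and 139 CPM in WT and 165, 165 and 229 CPM in I53A, with replicate 3 highest in each genotype and no overlap between them. Its log2 change was 0.76 ± 0.19 (adjusted p = 0.0174). The call was kept in 12 of 14 alternatives and lost without WT replicate 1 (0.68, adjusted p = 0.0628) or WT replicate 2 (0.66, adjusted p = 0.0606). Spred2, which holds back Ras activation, rose from 76.3, 78.4 and 83.5 CPM to 103, 102 and 102 CPM, a log2 change of 0.37 ± 0.069 (adjusted p = 0.00422). Spry2 was not called, at 57.7, 60.6 and 75.0 CPM in WT and 76.3, 76.5 and 91.4 CPM in I53A, a log2 change of 0.34 ± 0.12 (adjusted p = 0.0606). It was called with the replicate block (0.34, adjusted p = 4.36e-05) and without WT replicate 3 (0.45, adjusted p = 0.00967). The latter fit kept I53A replicate 3, the highest library, so the difference between replicates enters its change. Spred1 gave -0.27 ± 0.10 (adjusted p = 0.0585), and was called lower with the replicate block (-0.26, adjusted p = 0.00172) and without WT replicate 1 (-0.34, adjusted p = 0.0467). Spry1 and Spred3 were not called, with log2 changes of 0.29 and -0.26.

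Both ETS target factors rose in I53A. Etv4 was at 143, 129 and 137 CPM in WT and 204, 183 and 171 CPM in I53A, a log2 change of 0.45 ± 0.084 (adjusted p = 0.00412). Etv5 was at 227, 243 and 255 CPM in WT and 301.2, 298 and 300.7 CPM in I53A, a log2 change of 0.31 ± 0.069 (adjusted p = 0.00927). Neither gene's groups overlapped, and without WT replicate 1 the change of Etv5 was 0.27 (adjusted p = 0.0527) and no longer called. Etv5 was called in 13 of 14 alternatives.

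**Figure D2:**
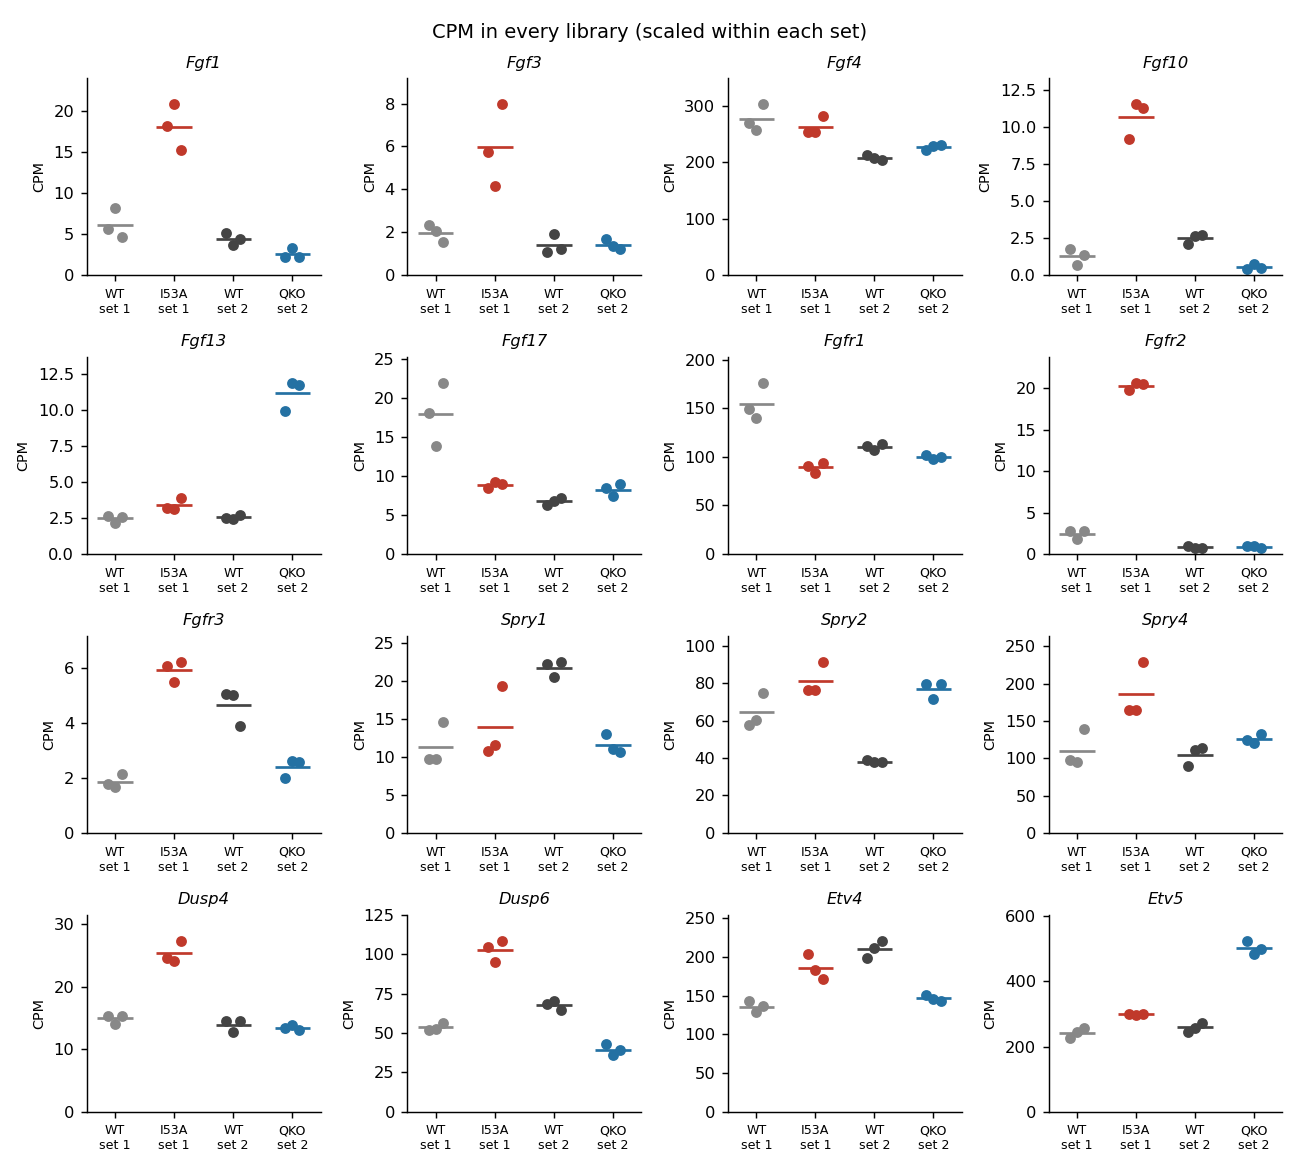
CPM of 16 members in each of the 12 libraries (points) with the group mean (line), scaled within each set, each vertical axis starting at 0. The 3 I53A libraries of Fgf10, Fgfr2, Fgf1 and Dusp6 lie above all WT libraries of set 1, and the 3 libraries labelled QKO of Fgf13, Spry2 and Etv5 lie above all WT libraries of set 2.

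The libraries labelled QKO were compared with WT in set 2 to see which of the same genes differ when the linker histone genotype is named as lost. Of 25 members tested, 7 were called higher and 9 lower, where 28.7% of all 15439 genes tested were called higher and 29% lower. The median log2 fold change was 0.016 over the tested members and -0.00334 over all genes tested. Fgf4, Fgf12, Fgf13, Spry2, Spry4, Spred3 and Etv5 rose, and Fgf1, Fgf10, Fgf11, Fgfr1, Fgfr3, Spry1, Spred1, Dusp6 and Etv4 fell. Of these 25, Fgf12 had a mean WT count under 10 and passed through its level in the libraries labelled QKO, and without it 6 members were called higher. The share of members called higher was thus close to that of all genes, and each class except the receptors held genes of both directions.

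The intracellular ligands lack a secretion signal and are known to bind sodium channels, and they did not move one way. Fgf13, on chromosome X, from 56315322 to 56821248 on the minus strand, was at 2.50, 2.43 and 2.69 CPM in WT and 9.91, 11.9 and 11.8 CPM in the libraries labelled QKO. All 3 of those libraries lay far above the controls, a 4.37-fold rise and a log2 change of 2.13 ± 0.15 (adjusted p = 1.09e-17). Fgf12 had 17, 10 and 20 counts in them and 1, 2 and 0 in WT, 47 counts against 3, a ratio of 14.9 with an exact 95% interval from 4.80 to 74.9. Fgf11 moved the other way, from 6.56, 4.41 and 4.92 CPM to 2.78, 2.98 and 3.42 CPM, a log2 change of -0.78 ± 0.18 (adjusted p = 0.000232), and the fourth intracellular ligand Fgf14 was too low to test. Below the filter, Fgf2 had 21 counts against 3, a ratio of 6.66 with an interval from 1.99 to 34.9, and Fgf7 had 19 against 3, a ratio of 6.03 with an interval from 1.77 to 31.8. The other untested ligands, which include Fgf5, Fgf6, Fgf8, Fgf9, Fgf16, Fgf20, Fgf21 and Fgf22, had at most 8 counts in a library of set 2.

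Among secreted ligands, Fgf10 fell from 2.09, 2.65 and 2.74 CPM in WT to 0.385, 0.746 and 0.515 CPM in the libraries labelled QKO, a 4.67-fold fall without overlap and a log2 change of -2.22 ± 0.33 (adjusted p = 5.25e-08). The libraries labelled QKO held only 9, 12 and 11 counts of Fgf10, which passed the filter through its level in WT. Fgf1 was at 5.11, 3.64 and 4.45 CPM in WT and 2.22, 3.29 and 2.15 CPM, also without overlap, a log2 change of -0.81 ± 0.20 (adjusted p = 0.000573). Fgf4 rose, from 213, 207 and 204 CPM to 221, 228 and 230.4 CPM. Its log2 change was 0.12 ± 0.041 (adjusted p = 0.0099), a 1.09-fold difference that was not called without QKO replicate 3 (0.11, adjusted p = 0.0544) or with the spread taken over all 12 libraries (0.12, adjusted p = 0.151). Fgf17 was not called, at 0.29 ± 0.13 (adjusted p = 0.051), but was called with DESeq2 size factors (0.30, adjusted p = 0.0456), with a filter of 1 CPM in 3 libraries (0.30, adjusted p = 0.0427), and without WT replicate 3 (0.34, adjusted p = 0.0436) or QKO replicate 2 (0.36, adjusted p = 0.033). Fgf3, Fgf15, Fgf18 and Fgf23 were not called, with log2 changes of 0.016, 0.048, -0.30 and -0.75.

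No receptor rose in the libraries labelled QKO. Fgfr3 fell from 5.05, 5.02 and 3.89 CPM to 2.01, 2.61 and 2.57 CPM, a log2 change of -0.96 ± 0.20 (adjusted p = 3.92e-05) and without overlap. Fgfr1 fell as well, from 112, 107 and 114 CPM to 102, 97.8 and 99.4 CPM, a log2 change of -0.15 ± 0.047 (adjusted p = 0.00567). With the spread of all 12 libraries that fall was -0.15 (adjusted p = 0.115) and not called. Fgfr2 was low in every library of set 2, at 0.928, 0.716 and 0.788 CPM in WT and 0.940, 0.994 and 0.749 CPM in the libraries labelled QKO, and these overlapped. Its log2 change was 0.14 ± 0.37 (adjusted p = 0.773). Fgfr4 gave 0.25 ± 0.14 (adjusted p = 0.122), and was called higher without WT replicate 3 (0.36, adjusted p = 0.043) or QKO replicate 2 (0.36, adjusted p = 0.0329).

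The Sprouty genes split in set 2. Spry2 rose from 38.7, 37.7 and 37.7 CPM in WT to 79.5, 71.8 and 79.4 CPM in the libraries labelled QKO, a 2.03-fold rise and a log2 change of 1.02 ± 0.058 (adjusted p = 2.2e-21). Spry1 fell from 22.3, 20.6 and 22.6 CPM to 13.0, 11.1 and 10.7 CPM, a 1.87-fold fall and a log2 change of -0.91 ± 0.10 (adjusted p = 8.52e-12). In both genes the 3 libraries of each group lay close together and the groups did not overlap. Spry4 rose too, from 90.0, 111 and 114 CPM to 125, 121 and 132 CPM, a log2 change of 0.26 ± 0.072 (adjusted p = 0.00598). WT replicate 1 was its lowest library, and with the spread of all 12 libraries the rise was 0.26 (adjusted p = 0.24) and not called. Among the Spred genes, Spred1 fell from 97.8, 102 and 93.6 CPM to 79.9, 79.5 and 78.6 CPM, a log2 change of -0.30 ± 0.049 (adjusted p = 7.23e-07), and Spred3 rose from 5.69, 6.67 and 5.70 CPM to 10.7, 7.40 and 8.57 CPM, a log2 change of 0.58 ± 0.14 (adjusted p = 0.000341). Spred2 gave 0.10 ± 0.05 (adjusted p = 0.0788) and was called without QKO replicate 2 (0.13, adjusted p = 0.0466) and with a filter of 1 CPM in 3 libraries (0.11, adjusted p = 0.0487).

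The ERK phosphatases also parted, since Dusp6 fell from 68.2, 70.2 and 64.9 CPM to 43.2, 35.9 and 39.0 CPM, a log2 change of -0.78 ± 0.062 (adjusted p = 6.93e-16), and Dusp4 was not called, at 14.5, 12.7 and 14.5 CPM and 13.4, 13.9 and 13.1 CPM (-0.049 ± 0.10, adjusted p = 0.701). The ETS factors went opposite ways. Etv5 rose from 245, 258 and 273 CPM to 525, 484 and 499 CPM, a 1.94-fold rise and a log2 change of 0.96 ± 0.042 (adjusted p = 6.58e-26). Etv4 fell from 199, 212 and 221 CPM to 151, 146 and 143 CPM, a log2 change of -0.52 ± 0.045 (adjusted p = 8.38e-15). Per length Etv5 thereby reached 129 CPM per kilobase in the libraries labelled QKO, above Fgf4 at 78.8 in the same libraries.

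**Figure D3:**
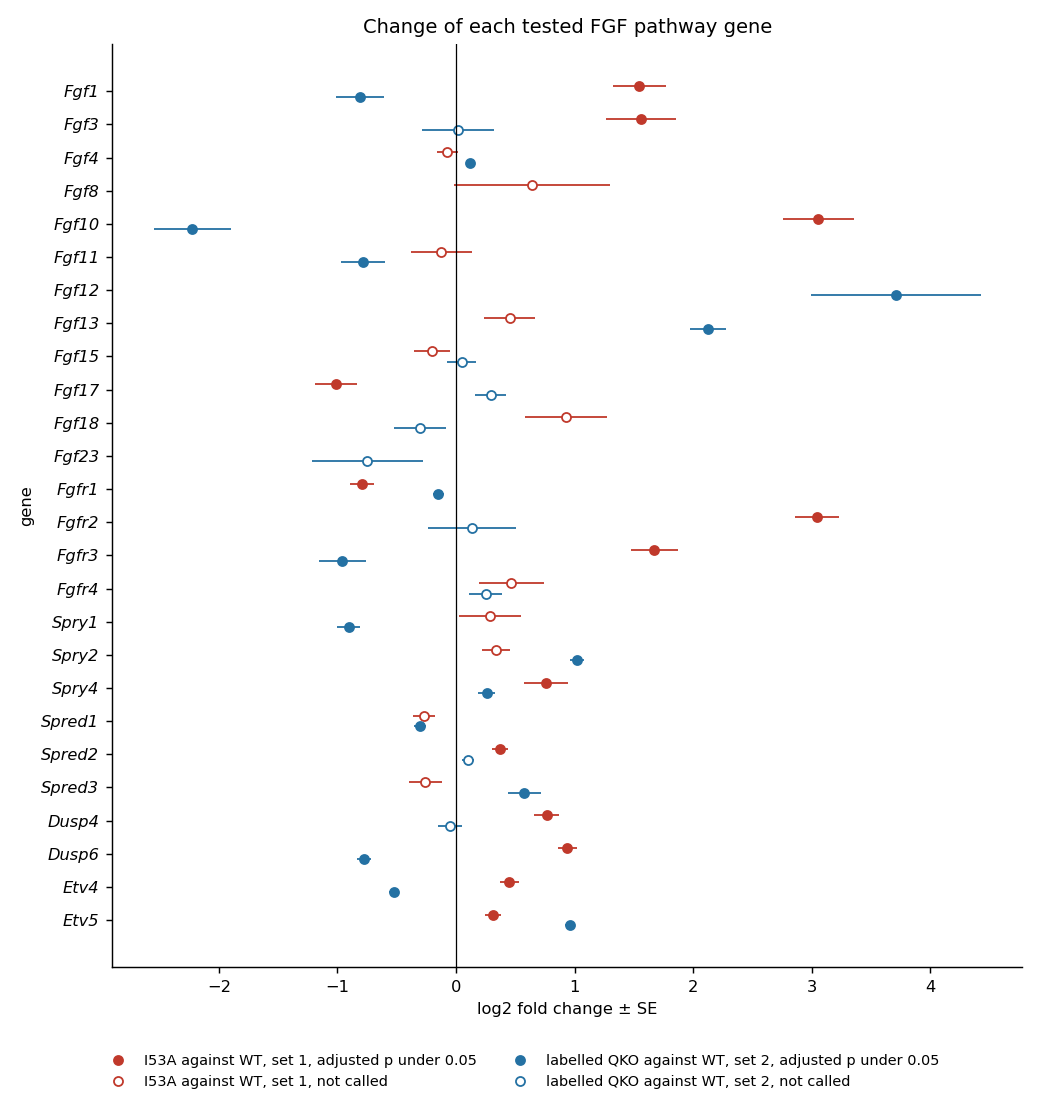
Log2 fold change ± SE of each member tested, for I53A against WT in set 1 (red) and the libraries labelled QKO against WT in set 2 (blue). Filled points passed an adjusted p under 0.05. Fgf10, Fgf1, Fgfr3, Dusp6 and Etv4 lie on opposite sides of 0 with both points filled.

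Each effect has its own WT group, so the difference between the effects was tested with an interaction contrast in 1 fit of 12 libraries, I53A minus its WT less QKO minus its WT. Of 26 members tested, 11 had a higher effect in I53A and 6 a lower one, where 18% of all 16501 genes tested were called higher and 18.1% lower. Of 23 members tested in both sets, 5 were called in opposite directions (Fgf1, Fgf10, Fgfr3, Dusp6 and Etv4), Etv5 and Spry4 rose in both, and Fgfr1 fell in both. Of all 14589 genes tested in both sets, 7.7% were called in opposite directions, 7.55% rose in both and 7.8% fell in both. Fgf10 had the largest difference, at 5.30 ± 0.43 (adjusted p = 3.46e-07) on the log2 scale, with only 9, 12 and 11 counts in the libraries labelled QKO. Fgfr2 differed by 2.93 ± 0.32 (adjusted p = 5.92e-06), Fgfr3 by 2.65 ± 0.27 (adjusted p = 3.12e-06) and Fgf1 by 2.37 ± 0.32 (adjusted p = 4.91e-05). Fgf3 differed by 1.56 ± 0.42 (adjusted p = 0.00958). These ligands and receptors were all higher in I53A relative to its own control than in the libraries labelled QKO relative to theirs.

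Of the 4 inhibitors that rose in I53A, 3 were called in the difference, with Dusp6 at 1.74 ± 0.11 (adjusted p = 2.34e-08) and Dusp4 at 0.83 ± 0.13 (adjusted p = 0.000184). Spry1 differed by 1.21 ± 0.29 (adjusted p = 0.00471), although it was called in set 2 alone. In the other direction were Fgf13, at -1.66 ± 0.23 (adjusted p = 6.51e-05), Fgf17, at -1.28 ± 0.21 (adjusted p = 0.00029), Spred3, at -0.81 ± 0.21 (adjusted p = 0.00656), and Spry2, at -0.66 ± 0.13 (adjusted p = 0.00127). Etv4 differed by 0.99 ± 0.10 (adjusted p = 2.9e-06) and Etv5 by -0.63 ± 0.084 (adjusted p = 4.15e-05), so that the paired ETS factors differed in opposite senses. Fgfr1, which fell in both sets, fell further in I53A, by -0.62 ± 0.11 (adjusted p = 0.000339). Spry4, which rose in both, gave a difference of 0.52 ± 0.23 (adjusted p = 0.105), and with the replicate block of 0.52 (adjusted p = 6.36e-07) or without WT replicate 3 of set 1 of 0.71 (adjusted p = 0.0146). The last of these fits kept I53A replicate 3, so the difference between replicates enters it. For Spred2 the difference of 0.29 ± 0.082 (adjusted p = 0.0121) was lost without QKO replicate 2 (0.24, adjusted p = 0.0567). The difference of Fgf18, 1.24 ± 0.44 (adjusted p = 0.0367), was not called in 7 of 12 fits that left out 1 library, and over those 12 fits it ranged from 0.94 to 1.41 on the log2 scale. It was lost with no filter on low counts (adjusted p = 0.055), without WT replicate 2 or 3 or I53A replicate 2 or 3 of set 1, and without WT replicate 2 or QKO replicate 1 or 3 of set 2. Fgf4 gave -0.17 ± 0.089 (adjusted p = 0.144), called with the replicate block (-0.17, adjusted p = 0.0104), and Fgf11 gave 0.69 ± 0.33 (adjusted p = 0.117), called without I53A replicate 3 (0.88, adjusted p = 0.0274). Fgf8, Fgf12, Fgf15, Fgf22, Fgfr4 and Spred1 were not called, with differences of 0.67, -0.97, -0.23, 0.62, 0.25 and 0.053.

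Neighbouring members did not all move together. Spry4 and Fgf1, 237404 bases apart on chromosome 18, both rose in I53A, and in the libraries labelled QKO Spry4 rose and Fgf1 fell. Fgf2 and Spry1 lie 234569 bases apart on chromosome 3, and Spry1 fell in the libraries labelled QKO. There Fgf2 had 21 counts against 3, but it was not tested and shares 13.4% of its exon bases with Nudt6. Of Fgf3, Fgf4 and Fgf15 on chromosome 7, Fgf4 alone was called in set 2.

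Co-receptors and heparan sulphate genes, which help ligands reach the receptors, were read from a list of 29 names, 28 of them in the annotation. In I53A 8 of 27 tested were called higher and 4 lower, where 18.1% and 17.4% of all genes were, with a median log2 change of 0.021. The 3 highest fitted changes belonged to genes with a mean WT count under 10, which passed the filter through their level in I53A, so their summed counts over 3 libraries are given as a description. Klb, the Klotho co-receptor of hormone-like ligands, had 605 counts in I53A against 15 in WT. Gpc6, a glypican, had 135 against 20, and Hs6st2, a heparan sulphate sulphotransferase, had 103 against 15. The next rises were in genes with more WT counts. Flrt3, a membrane protein that binds FGF receptors, rose by 2.73 ± 0.14 (adjusted p = 8.47e-06). Sdc3 rose by 1.99 (adjusted p = 7.89e-05) and Flrt2, a relative of Flrt3, by 1.46 (adjusted p = 0.00611). Sulf1, an enzyme that removes sulphate from heparan sulphate, fell by the most, at -0.98 ± 0.10 (adjusted p = 0.000188), followed by the heparan sulphate synthesis enzymes Ndst2 at -0.76 (adjusted p = 0.00478) and Extl3 at -0.74 (adjusted p = 0.000273). In the libraries labelled QKO 8 of 25 were called higher and 9 lower, where 28.7% and 29% of all genes were, with a median of -0.13. Flrt2 rose here too, by 2.12 ± 0.24 (adjusted p = 7.62e-11), and Sdc2 and Gpc6, which carry heparan sulphate, by 1.08 (adjusted p = 3.67e-09) and 0.97 (adjusted p = 0.000614). Sulf1 fell here as well, at -1.38 ± 0.073 (adjusted p = 8.53e-23), with Fgfbp3, an FGF carrier, at -1.26 (adjusted p = 0.000147) and Fgfrl1, a receptor without a kinase, at -0.88 (adjusted p = 1.8e-06).

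The cascade from adaptor to ERK was read from a list of 27 genes. All were tested in both sets. In I53A 3 were called higher and 7 lower, where 18.1% and 17.4% of all genes were, with a median log2 change of -0.082. In the libraries labelled QKO 7 were called higher and 13 lower, where 28.7% and 29% of all genes were, with a median of -0.075. Ksr1, a scaffold for Raf and MEK, was the largest rise in both, at 0.82 ± 0.11 (adjusted p = 0.000925) and 0.79 ± 0.10 (adjusted p = 5.23e-09). In I53A the adaptor Shc1 and the MEK gene Map2k2 rose by 0.63 (adjusted p = 0.000382) and 0.43 (adjusted p = 0.031). The largest falls there were Rasal2, which switches Ras off, at -0.74 (adjusted p = 0.000689), and the adaptors Frs3 and Gab1 at -0.72 (adjusted p = 0.0138) and -0.65 (adjusted p = 0.0011). Gab1 instead rose in the libraries labelled QKO, at 0.43 (adjusted p = 1.33e-13), with the ERK substrate kinase Rps6ka3 at 0.42 (adjusted p = 8.27e-08). The Ras activator Sos2 at -0.74 (adjusted p = 1.42e-07), Rps6ka1 at -0.69 (adjusted p = 2.76e-19) and Shc1 at -0.66 (adjusted p = 2.83e-16) were its largest falls.

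Other genes known to respond to ERK moved in both directions in I53A, with 9 of 28 called higher and 10 lower, where 18.1% and 17.4% of all genes were, and a median log2 change of 0.030. Ets1, an ETS factor, and the phosphatase Dusp9 rose, at 2.47 ± 0.18 (adjusted p = 4.16e-05) and 1.98 ± 0.071 (adjusted p = 1.24e-06). Dusp8, another phosphatase, had 124 counts over the I53A libraries against 24 in WT and passed the filter through its level in I53A. Egr1, an immediate early transcription factor of the pathway, fell by the most, at -2.24 ± 0.26 (adjusted p = 0.000617). The immediate early gene Junb and the phosphatase Dusp16 followed at -1.28 (adjusted p = 0.00435) and -1.25 (adjusted p = 0.000547). In I53A, then, Dusp6, Dusp4, Spry4, Etv4 and Etv5 were higher while Egr1 and Junb were lower in the same libraries. Other immediate early genes of the list did not move one way. Ier2 fell (-0.64, adjusted p = 0.0344), Fos was not called (0.044, adjusted p = 0.899) and Myc rose (0.82, adjusted p = 0.0165). Phosphatases of the list also went both ways, with Dusp9 higher and Dusp16 lower. Per length Egr1 was at 16.7 CPM per kilobase in WT of set 1, 3.60 in I53A and 2.69 in WT of set 2. In the same order Dusp9 was at 19.6, 78.3 and 104, and Etv4 at 41.3, 57.0 and 71.7. For these genes the WT groups lay further apart than the groups of set 1. Junb was at 18.1, 7.55 and 18.9, below both WT groups in I53A. In the libraries labelled QKO 10 of 27 were called higher and 5 lower, where 28.7% and 29% of all genes were, with a median of 0.022. Dusp10 rose by 1.62 ± 0.25 (adjusted p = 2.57e-07), Ets1 by 0.98 (adjusted p = 0.0036) and Phlda1 by 0.65 (adjusted p = 9.34e-05). Dusp1 and Emp1 fell, at -1.16 ± 0.081 (adjusted p = 2.64e-17) and -1.08 (adjusted p = 7.27e-19), and Dusp5, a nuclear ERK phosphatase, at -0.39 (adjusted p = 0.00355).

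**Figure D4:**
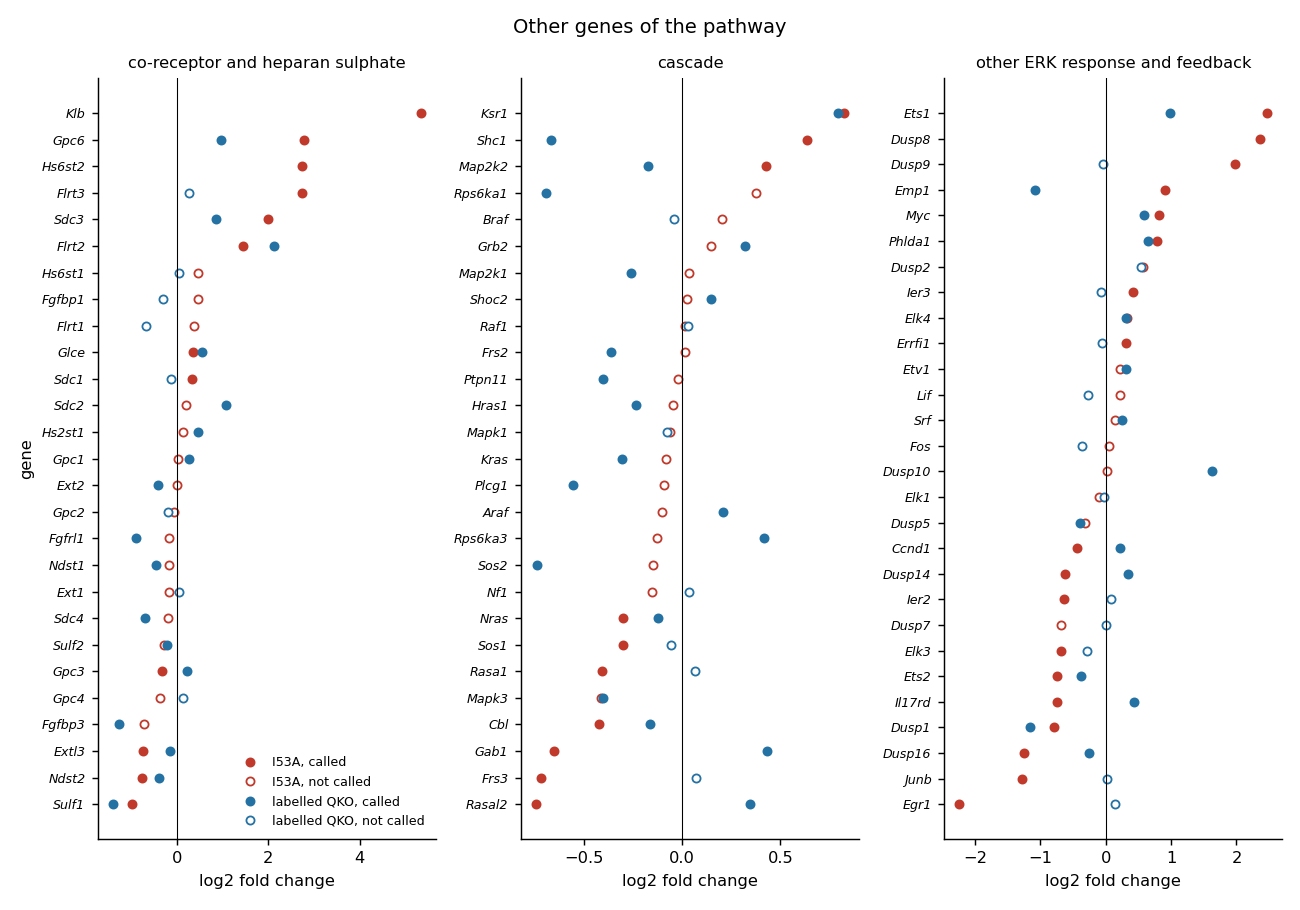
Log2 fold change of tested genes of 3 lists (co-receptors and heparan sulphate, cascade, other genes of the ERK response) for I53A against WT (red) and the libraries labelled QKO against WT (blue), with filled points past an adjusted p of 0.05. Genes are ordered by the I53A value in each list, with Klb (15 summed WT counts), Ksr1 and Ets1 at the top and Sulf1, Rasal2 and Egr1 at the bottom.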

How the data were processed

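RNA-seq was read from 12 of the 93 samples of the series, and the other samples were not analysed here. Members and gene lists were chosen with earlier results of these data known. TRIzol extraction, TruSeq preparation and HiSeq sequencing are named per the labels' protocols. The authors deposited raw counts, made per the file headers with featureCounts 1.6.3, which counted read pairs per GENCODE gene name (mm9) with no strand or multiple-alignment option. Names of the counted alignments carry tophat and unique in set 1 and no aligner in set 2, and the submitters' processing notes name HISAT2 and DESeq2.

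Counts were normalised by TMM, filtered with filterByExpr and tested with edgeR 4.0.16 (R 4.3.3, robust quasi-likelihood, two-sided, Benjamini-Hochberg over all genes tested, threshold 0.05). Each comparison used its 6 libraries, and the difference of effects all 12. Log2 fold changes are given ± SE, with n = 3 per group. CPM was computed from the deposited counts, scaled within a set, or over all 12 libraries for levels per kilobase and summed markers. The tests were run on simulated counts with the same dispersion for all genes, no replicate effect and changes placed only in well counted genes. That run does not check them at the spread between replicates seen here or at low counts. All members are named. Of each pathway list the 3 largest called rises and falls per comparison are named, with the next rises of the co-receptor list in I53A. From the list of other ERK response genes Ier2, Fos and Myc are named as well, for I53A. Of each marker list up to 4 genes are named. Replicates differed by more than sampling noise (chi-square per degree of freedom 2.19 to 27.3).

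In set 1, same-numbered WT and I53A libraries deviated together (correlations 0.229, 0.258 and 0.491), so replicate number from the titles was taken as pairing in an alternative, the replicate block. The main fits had no replicate term, so their spread in set 1 includes the difference between replicates. The differently numbered pairs of replicates 1 and 2 correlated alike (0.218 and 0.241), so the data set apart replicate 3 but do not tell 1 from 2. Replicate 3 tables of that set follow another naming style, and the table names number I53A replicates 1 and 2 in the reverse order of the titles. Alternatives were DESeq2 1.42.0, its size factors, other low-count filters, the replicate block, the naming style as a term, replicates 1 and 2 alone, all 12 libraries in 1 fit and leaving out each library. Leaving out 1 library of set 1 gave replicate 3 unequal weight in the 2 genotypes.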

Additional observations from a re-analysis of the deposited data

How the results depend on the processing

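Most changed calls of single members stand beside their values above. In I53A, Spry2, Spred1 and Fgfr4 were also called with replicates 1 and 2 alone and with the naming style as a term, Spry2 and Spred1 with all 12 libraries in 1 fit, and Spry2 with no filter on low counts and with DESeq2. In set 1 the genes called higher went from 2808 to 4371 with the replicate block and 4387 with the naming style as a term, and those called lower from 2704 to 4427, 4434 and, with replicates 1 and 2 alone, 4146, while the members called stayed between 11 and 14 higher and 2 and 3 lower under alternatives that kept all replicates or replicates 1 and 2; the cause was not tested. Leaving out 1 library gave 9 to 13 members higher and 2 to 3 lower in I53A (all genes 1996 to 3034 and 1832 to 2883), 6 to 10 higher and 9 lower in the libraries labelled QKO (all genes 3994 to 4346 and 4077 to 4397), and 10 to 11 higher and 6 lower for the difference of effects (all genes 2396 to 3299 and 2681 to 3274). Members whose direction reversed were all far from the threshold. In I53A these were Spry1 without I53A replicate 3 (-0.019, with a range over left-out libraries up to 0.49) and Fgf11 without WT replicate 1 (0.023), without I53A replicate 3 (0.067, from a low of -0.33) and with replicates 1 and 2 alone (0.053). In the libraries labelled QKO they were Fgf3 without WT replicate 1 (-0.13), WT replicate 3 (-0.10) or QKO replicate 1 (-0.13, up to 0.29), and Fgf15 without WT replicate 3 (-0.033) or QKO replicate 3 (-0.022, up to 0.11). For the difference they were Spred1 without WT replicate 1 of set 1 (-0.016, up to 0.11) and Fgf8 without WT replicate 2 of set 2 (-0.076, up to 1.75). In set 2 same-numbered libraries did not deviate together (correlations 0.0236, -0.00393 and 0.042), and there the replicate block changed no call among the members, with 4517 genes higher and 4563 lower. With that block the difference of effects had 12 members higher and 7 lower. Depth limits the 8 ligands with at most 10 counts in every library, for which no change could be tested.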
